A study of Mus musculus with 6 samples.

Results

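The 86 ribosomal protein genes of the count tables were described in single cells from mouse small-intestinal crypts, out of 19178 gene symbols in all. Members were the symbols that match Rpl or Rps followed by a digit, with Rplp0, Rplp1, Rplp2 and Rpsa. Symbols holding -ps, the Rps6k kinases and Rps3a2 were left out. The rule matched names only and used no measured value, but it was set with earlier results of these data known. It gave 43 genes of the large subunit, 33 of the small subunit, 3 of the stalk (the P proteins), and 7 paralogs or genes that share only a name (Rpl3l, Rpl7l1, Rpl10l, Rpl22l1, Rpl36al, Rps27l and Rps19bp1). In the GENCODE annotation of build GRCm38, 84 of them are protein-coding genes. Rps3a3 is a processed pseudogene there, and Rps4y2 was not found by symbol. Both are counted among the 33 small-subunit genes by their symbols alone.

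Crypt cells of C57BL6 mice aged 10 weeks, which received no treatment, were the source of the Drop-seq libraries. The method captures single cells in droplets, tags the polyadenylated RNA of each with a barcode and reads it at its 3′ end. One genotype lacked the prostaglandin E2 receptor gene Ptger4 in the epithelium (knockout), and the other carried it floxed and unrecombined (flox). Each genotype had 2 biological replicates and 3 droplet collections. Going by their codes, biological replicate 1 gave collections 1 and 2 and biological replicate 2 gave collection 3, which the labels do not state outright. The sources used here give neither the promoter that drives Cre nor the part of Ptger4 that is removed, and nothing says how many animals a biological replicate holds, so p-values measure only the spread between these samples.

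Of 13191 barcodes, 4890 passed the filter (300 genes or more detected, mitochondrial counts no higher than 25%), with 1028412 to 3020164 kept counts per collection. Collections that share barcodes formed 2 sets, here called run 1 (flox collections 1 and 2, knockout collection 1) and run 2 (flox collection 3, knockout collections 2 and 3), and 133 kept barcodes (2.72%) occurred in more than 1 collection of a run. Ptger4 itself had 14 to 36 counts per flox collection and 26 to 59 per knockout collection. These are 11.9 to 15.1 counts in every 1000000 (CPM) in flox and 17.4 to 24.5 in knockout, so the level did not fall in the collections labelled knockout. A 3′ tag outside the deleted part would not show the deletion, so this does not check the labels. Clusters were named from markers, and the classes carry "-like" in their names for that reason. The ribosomal protein genes were kept out of the clustering.

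A cytosolic ribosome joins a small subunit, which decodes the mRNA, to a large subunit, which forms peptide bonds, and the stalk recruits the elongation factors. The subunits are assembled in the nucleolus from ribosomal RNA and ribosomal proteins, and nearly every ribosomal protein is needed in equal number. Their mRNAs are among the most abundant of a growing cell and start with a run of pyrimidines, the 5′ terminal oligopyrimidine (TOP) tract, through which their translation is tuned to nutrient signals. In the crypt, stem cells and their dividing daughters grow and multiply, whereas the cells that leave the cycle make digestive enzymes, mucus or hormones.

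Ribosomal protein genes held 15.9% of all kept counts, 1823629 in number. Large-subunit genes took 48.6% of these, small-subunit genes 44.5%, the stalk 5.53% and the paralogs 1.4%. Most members were abundant: 73 of 86 lay at 1000 CPM or more, and the median was 1814 CPM. These are 3′ tag counts, so they are not divided by transcript length. Among the most abundant were Rpl41 with 4597 CPM, Rplp1 (a stalk protein) with 4559, Rps12 with 3921, Rps24 with 3686 and Rpl13 with 3398.

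At the low end, 7 members lay under 120 CPM. The muscle form Rpl3l and the retrogene Rpl10l had 2 counts each in all kept cells, Rps3a3 lay at 42.9 CPM, Rps4y2 at 75.5, Rpl7l1 at 98.8 and Rps19bp1 at 102. Rpl24, a core protein of the large subunit, stood at only 51.5 CPM, and its collections ranged from 41.8 to 61.7 CPM. The sources used here do not say how reads shared with processed copies were assigned. Levels of members with near-identical copies are uncertain for that reason.

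The annotated transcription starts show a run of pyrimidines for some members and not for others. Of the 86 members, 64 had an entry in the RefSeq promoter table (build GRCm38.p6). A run of at least 5 C or T letters that includes the first transcribed base was present in 20 of 57 members without the paralogs (35.1%) and in 0 of 7 paralogs or like-named genes. It was present in 11.8% of all 27025 genes in that table. Such a run may begin before the first transcribed base and so hold letters that are not transcribed. These shares therefore do not count TOP tracts. The letters CCGGAAG occurred on either strand in the 300 bases around the start of 24 of the 57 (42.1%) against 9.93% of all genes. An annotated start can differ from the one used in these cells, and these matches describe letters only. The windows below run from 15 bases before the annotated start through the first 15 transcribed bases, on the strand of the gene, and capitals mark the run of C and T that holds the first transcribed base. The first 5 are members whose level fell most outside the stem cell-like class, Rps27 and Rpl10 fell least, and the last 3 are paralogs.
Rpl14 (chr9:120571502-120571531, + strand): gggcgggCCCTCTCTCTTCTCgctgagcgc
Rpl15 (chr14:18270972-18271001, - strand): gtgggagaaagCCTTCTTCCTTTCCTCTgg
Rps6 (chr4:86857353-86857382, - strand): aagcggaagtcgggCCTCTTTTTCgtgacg
Rpl7a (chr2:26910792-26910821, + strand): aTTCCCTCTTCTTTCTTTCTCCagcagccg
Rps18 (chr17:33955651-33955680, - strand): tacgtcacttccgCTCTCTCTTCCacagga
Rps27 (chr3:90213634-90213663, - strand): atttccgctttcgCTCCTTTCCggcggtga
Rpl10 (chrX:74270801-74270830, + strand): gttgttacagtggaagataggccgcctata
Rps27l (chr9:66946071-66946100, + strand): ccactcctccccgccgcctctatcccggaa
Rpl36al (chr12:69184053-69184082, - strand): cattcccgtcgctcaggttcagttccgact
Rpl22l1 (chr3:28805493-28805522, + strand): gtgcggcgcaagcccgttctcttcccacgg
By how far members fell, the run was present in 5 of 8 members with an entry among those that fell most and in 3 of 5 among those that fell least. RefSeq also lists a second start for Rps27l, without such a run.

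The share of a cell's counts in ribosomal protein genes had its highest means, among the named classes, in B or plasma cell-like, stem cell-like and cycling-like cells. Counts were summed per class and biological replicate (n = 4, both genotypes). The share was 21.1% ± 1.38 (SD) in stem cell-like cells, 19.2% ± 1.76 in cycling-like cells, 13.7% ± 0.435 in goblet-like ones and 12.3% ± 0.682 in enterocyte-like cells. Enterocyte-like cells held 2 clusters that stood apart. Cluster 6, led by the lipid-absorption genes Fabp1, Apoa1 and Apoa4, had a share of 8.18% ± 0.573, and its collections ranged from 7.44% to 9.31%. Cluster 1, led by Fabp6 and Reg3g, had 15.04% ± 1.16, with collections from 13.8% to 19.0%, so the collections of these clusters did not overlap.

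B or plasma cell-like cells reached 21.6% ± 3.64, where the lowest collection, at 17.0%, rested on 10 cells and the highest stood at 25.3%. T cell or NK-like cells had 16.6% ± 0.867. Among the rare epithelial classes, enteroendocrine-like cells had 12.2% ± 0.636, tuft-like cells 13.1% ± 3.41 and Paneth-like cells 10.7% ± 4.18. Tuft-like collections ranged from 3.03% (2 cells) to 15.5% and Paneth-like collections from 5.02% to 17.7%, so their place in the order is not resolved. Cluster 2, which no marker list named and which is led by nuclear RNAs such as Gm26917 and Rn7sk, had 11.1%, the unnamed cluster 5 had 20.5%, and the unnamed cluster 15, with 16 cells from 2 biological replicates, had 23.5%. The stem list came closest for cluster 2, with 6 of 18 markers enriched and 0 among its top 10 genes. In the stem cell-like class 6 of 18 were also enriched, with 3 among its top 10 genes, which also held Hells, Mcm6 and Mcm3. The stem cell-like share is thus that of a class with few stem markers enriched. Barcodes that failed the filter held 5.47% to 10.4% per collection. Within a class the share also varied with depth: the median stem cell-like cell with 500 to 1000 counts had 15.03%, and with 2000 to 4000 counts 24.4%. Between classes depth did not follow the share, with a median of 1025 counts per stem cell-like cell, 1638 per enterocyte-like and 1736 per goblet-like cell. Among cells with 1000 to 2000 counts the median share was 23.7% in stem cell-like, 19.4% in cycling-like, 12.004% in goblet-like and 8.45% in enterocyte-like cells.

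**Figure D1:**
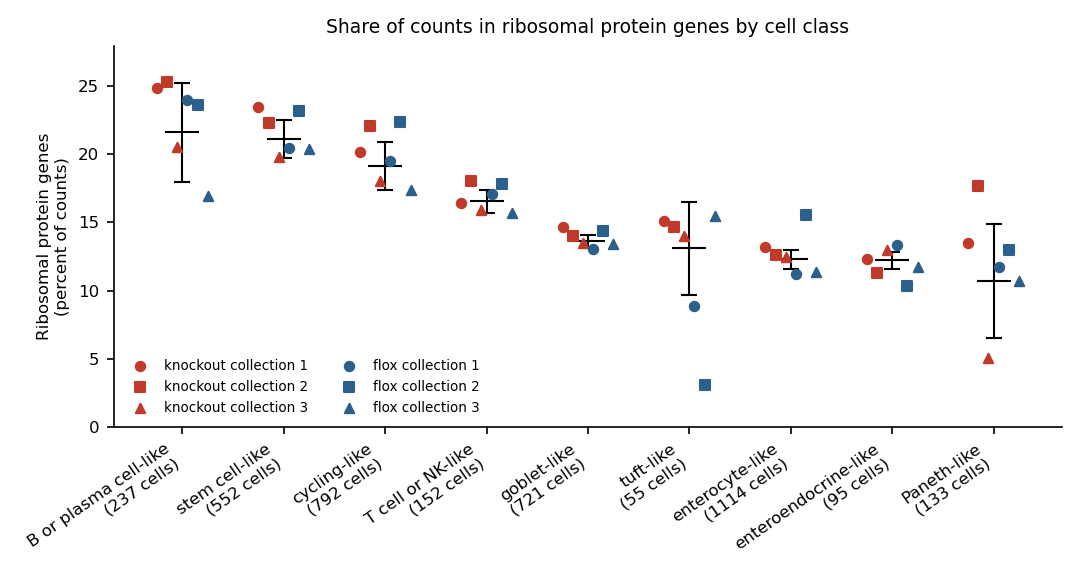
Percent of all counts in ribosomal protein genes (vertical axis) for 9 cell classes (horizontal axis, with cell numbers). Each point is 1 collection, red for knockout and blue for flox, and bars give the mean ± SD of 4 biological replicates. Stem cell-like collections lie between 19.8% and 23.5%, goblet-like ones between 13.1% and 14.7%, and the lone low tuft-like point (3.03%) rests on 2 cells.

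Relative to stem cell-like cells of the same biological replicate, the share differed by -8.84 percentage points in enterocyte-like cells (SD of the difference 1.10), by -7.46 in goblet-like cells (SD 1.03) and by -1.98 in cycling-like cells (SD 0.739), each lower in 4 of 4 biological replicates. An exact two-sided sign-flip permutation test gave p = 0.125 for each, the smallest that 4 replicates allow, and 0.125 after adjustment over the 3 contrasts. Over the 6 collections, which are not all independent, each was lower in 6 of 6 and the exact permutation p was 0.0312. The enterocyte-like and goblet-like differences exceeded the spread between replicates. The cycling-like difference was -0.23 points by the median over cells and -0.052 points at a finer clustering (resolution 2), lower in 2 of 4 biological replicates in both. Each alternative clustering named its clusters anew, so its classes did not hold the same cells. At resolution 2 a cluster led by Ifitm3, Stmn1 and Olfm4 (434 cells, median 4150 counts) was named stem cell-like. In the main clustering the cluster led by Ifitm3 and Stmn1 (474 cells, median 4296.5 counts) was named cycling-like. With a stricter filter of 600 genes or more the 3 differences were -14.5, -10.1 and -5.6 points, and at a coarser clustering (resolution 0.5) -4.86 and -4.65 points for enterocyte-like and goblet-like cells. The cells were clustered again under the stricter filter, and a cluster of 242 cells with Reg3g among its top genes stayed unnamed there. At resolution 0.5 the stem cell-like class held 1824 cells, against 552 in the main clustering.

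Nearly all members fell in the same direction between these classes. In edgeR's quasi-likelihood test on class sums, 78 of the 84 members tested were lower in enterocyte-like than in stem cell-like cells and 0 were higher, where 21.6% of all 7494 genes tested were called lower and 45.4% in either direction. The median log2 fold change was -0.68 over members and 0.04 over all genes. In goblet-like cells 77 were lower and 0 higher, where 13.5% of all genes were called lower and 27.8% in either direction, with a median of -0.60 over members. By role, the enterocyte-like fall passed the test for 42 of 43 large-subunit genes, 31 of 33 small-subunit genes, 3 of 3 stalk genes and 2 of the 5 paralogs tested. The goblet-like counts were 40, 31, 3 and 3. In both classes the small-subunit symbols that did not pass were Rps3a3 and Rps4y2. Scaling by library totals alone moved the enterocyte-like median over all genes to -0.07 and that over members to -0.79. Cells were grouped from the other genes of the same libraries, so these p-values measure the spread between sums and are not independent evidence for the classes.

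Cycling-like cells differed less. There 7 members passed the test and all 7 were lower, among them Rpsa, Rpl13, Rpl30, Rps26 and Rplp1, where 1.4% of all genes were called lower and 3.92% in either direction, and the median over members was -0.14. Rpl13 had a log2 fold change of -0.26 (SE 0.07, adjusted p = 0.0138 in edgeR's quasi-likelihood test). This count depended on the tool: 26 members were lower with DESeq2, 19 passed with DESeq2 size factors in edgeR, and 0 in edgeR without the replicate block. It also depended on single biological replicates, with 1 member without the first flox one, 3 without the first knockout one and 11 without the second knockout one. Over all genes the calls were 189 higher and 105 lower, and 149 higher and 156 lower with DESeq2 size factors. Calls over all genes are not given here for the other alternatives, so their member counts are not set against a share.

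The members that fell most were proteins of both subunits. In enterocyte-like cells they were Rpl14, Rpl12, Rpl3, Rpl15, Rps6 and Rpl36a, and in goblet-like cells Rpl15, Rpl7a, Rps2, Rpl23a, Rps6 and Rps18. Rpl14 stood at 4233 ± 217 CPM in stem cell-like cells (SD, n = 4 biological replicates), 3703 ± 211 CPM in cycling-like, 2340 ± 128 in goblet-like and 2020 ± 78.8 in enterocyte-like cells. The 6 stem cell-like collections, from 3959 to 4566 CPM, all lay above the 6 enterocyte-like ones, from 1792 to 2268 CPM. Its log2 fold change in enterocyte-like cells was -0.96 (SE 0.07, adjusted p = 1.0e-17 in edgeR's quasi-likelihood test). Rps6, the substrate of the S6 kinases, went from 1701 ± 278 CPM in stem cell-like cells to 848 ± 131 in enterocyte-like and 857 ± 68.5 in goblet-like cells, by -0.89 and -0.92 on the log2 scale. Rpl15 went from 1261 ± 151 CPM to 616 ± 115 and 618 ± 109, by -0.91 and -0.96. For Rps6 and Rpl15 single collections of the classes overlapped, with the lowest stem cell-like collection at 960 and 895 CPM and the highest enterocyte-like one at 1157 CPM for both.

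Other members fell less than the median while still passing the test. In enterocyte-like cells these were led by Rpl29 (-0.31), the X-linked Rpl10 (-0.34) and Rpl38 (-0.36), and in goblet-like cells by Rpl10 (-0.28), Rps24 (-0.30) and Rps29 (-0.31). Rpl10 stood at 1888 ± 307 CPM in stem cell-like, 1374 ± 56.1 in enterocyte-like and 1502 ± 143 in goblet-like cells. The 3 stalk genes changed by -0.64 (Rplp1), -0.67 (Rplp2) and -0.52 (Rplp0) in enterocyte-like cells. The Mdm2-binding proteins Rpl5 and Rpl11, which link ribosome assembly to p53, changed by -0.67 and -0.82.

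**Figure D2:**
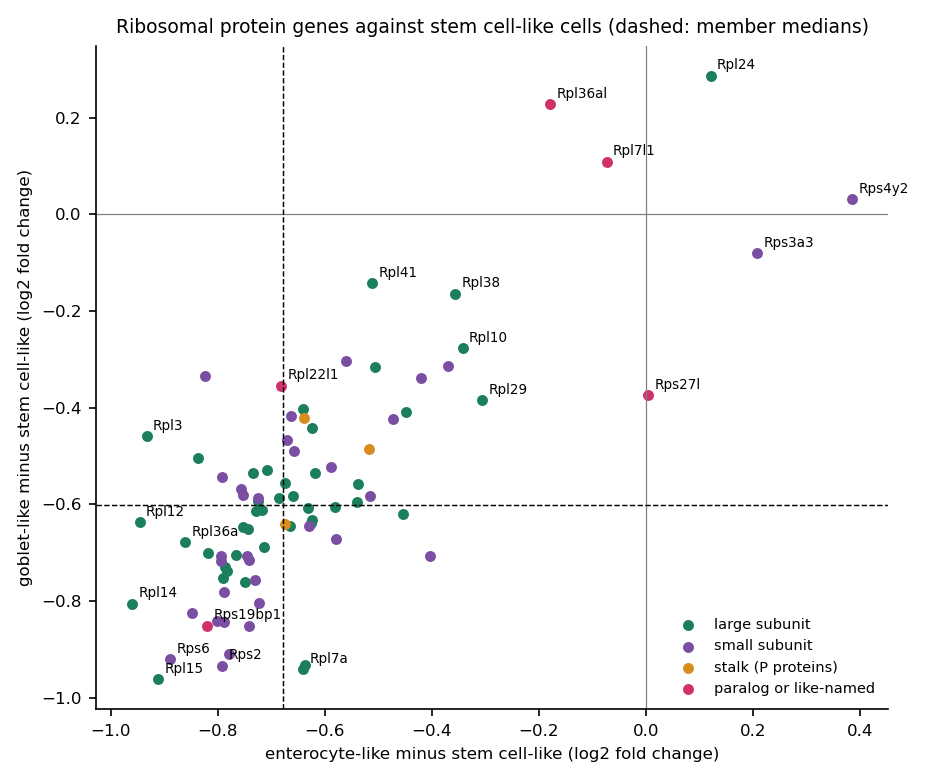
Log2 fold change against stem cell-like cells in enterocyte-like cells (horizontal axis) and goblet-like cells (vertical axis) for 84 ribosomal protein genes, coloured by role, with dashed lines at the member medians (-0.68 and -0.60). Both axes share the stem cell-like sums, so the placement along the diagonal is not a result. The members near 0 are paralogs, members at low counts and, on the goblet-like axis, the abundant Rpl41.

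The members that did not pass in enterocyte-like cells were Rps27l, Rpl36al, Rpl7l1, Rpl24, Rps3a3 and Rps4y2, and in goblet-like cells Rpl36al, Rpl41, Rpl38, Rpl7l1, Rpl24, Rps3a3 and Rps4y2. Of these, Rpl7l1, Rpl24, Rps3a3 and Rps4y2 are low members with a wide error: the SE in enterocyte-like cells was 0.23, 0.30, 0.38 and 0.29 in that order. Rps27l, Rpl36al, Rpl41 and Rpl38 lay above 500 CPM in each of these 3 classes and had SEs of 0.07 to 0.10. Rpl41, which encodes a very short protein, stood at 5532 ± 463 CPM in stem cell-like and 4838 ± 432 in goblet-like cells, a log2 fold change of -0.14 (SE 0.07).

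Gene lists around the ribosome were read against the same shares of all genes called lower, 21.6% in enterocyte-like and 13.5% in goblet-like cells. Of 29 ribosome biogenesis genes tested, 25 were lower and 0 higher in enterocyte-like than in stem cell-like cells, with a median log2 fold change of -1.91, and 21 were lower in goblet-like cells (median -0.87). Among them Ncl (nucleolin, a nucleolar RNA-binding protein) changed by -2.05 and -1.23, Fbl (fibrillarin, which methylates ribosomal RNA) by -1.44 and -1.06, and Polr1a (the largest subunit of RNA polymerase I) by -1.98 and -1.24. Of 21 translation genes, 15 and 17 were lower. Eef1b2, an exchange factor for the elongation factor, changed by -0.88 and -0.91, whereas the elongation factor Eef2 had -0.04 and 0.21 and did not pass. Of 75 mitochondrial ribosomal protein genes, whose proteins form a separate ribosome, 10 were lower and 4 higher in enterocyte-like cells (median -0.19) and 21 lower in goblet-like cells (median -0.34). Fau, which encodes a ribosomal protein fused to a ubiquitin-like sequence and which the symbol rule does not hold, was higher by 0.20 in enterocyte-like cells (SE 0.07, adjusted p = 0.0219 in edgeR's quasi-likelihood test) and lower in goblet-like cells, at -0.30.

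Most members kept a steady share of the ribosomal protein counts from class to class. The SD of a member's log2 share over the 9 classes had a median of 0.162 over the 84 members at 20 CPM or more. Large-subunit genes took 48.3% to 49.6% of ribosomal protein counts in every class, and small-subunit genes 43.8% to 46.3%. The 10 most uneven members were Rps27l (SD 1.10), Rps4y2 (1.06), Rpl7l1 (0.78), Rps19bp1 (0.72), Rps3a3 (0.60), Rpl24 (0.56), Rps27 (0.45), Rpl36al (0.37), Rps15a (0.33) and Rps23 (0.31). Of these, Rps4y2, Rpl7l1, Rps19bp1, Rps3a3 and Rpl24 had 3 to 38 counts in each immune class, so their spread there includes counting error.

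Rps27l had its lowest and Rps27 its highest mean levels in the immune classes. Rps27l, a paralog of Rps27 known as a p53 target, stood at 695 ± 83.8 CPM in stem cell-like cells (SD, n = 4 biological replicates), 691 ± 92.2 in cycling-like, 649 ± 126 in enterocyte-like and 518 ± 62.8 in goblet-like cells, but at 124 ± 54.7 in B or plasma cell-like and 122 ± 52.1 in T cell or NK-like cells. The immune levels rest on 31 and 21 counts. Rps27 stood at 2309 ± 310 CPM in stem cell-like, 1604 ± 273 in enterocyte-like and 1767 ± 270 in goblet-like cells, against 5032 ± 1905 in B or plasma cell-like and 3648 ± 362 in T cell or NK-like cells. For Rps27 the collections overlapped, with the lowest B or plasma cell-like one at 2351 and the highest stem cell-like one at 3497 CPM. The ratio of Rps27l to Rps27 counts was 0.306 in stem cell-like, 0.412 in enterocyte-like, 0.318 in cycling-like and 0.294 in goblet-like cells, and 0.0239 and 0.0388 in the B and T classes.

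As a percent of ribosomal protein counts, Rps27l lay between 0.0241% and 0.105% in the 8 immune sums and between 0.253% and 1.05% in the 28 epithelial sums, with no overlap. Of the 84 members, 3 (3.57%) had no overlap on this measure. The other two were Rpl41, at 1.89% to 2.30% in immune and 2.36% to 3.83% in epithelial sums, and Rpl10a, at 0.383% to 0.711% and 0.760% to 1.28%. These are values with no test, since the class sums of 1 biological replicate come from the same droplet collections. Immune barcodes were shallow, with medians of 680 and 780 counts, and free RNA from epithelial cells can add counts to them. Its part in the immune values of Rps27l was not tested.

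Rps15a and Rps23, proteins of the small subunit, also had their highest mean levels in the immune classes, with collections that overlapped those of stem cell-like cells. Rps15a stood at 3539 ± 952 CPM in B or plasma cell-like and 3422 ± 791 in T cell or NK-like cells, against 2814 ± 305 in stem cell-like and 1509 ± 155 in enterocyte-like cells. Rps23 stood at 3414 ± 890 and 3383 ± 327 CPM in the 2 immune classes, against 2576 ± 189 and 1436 ± 95.3. Rpsa, also known as the laminin receptor, took its highest share in Paneth-like and goblet-like cells, and goblet-like cells had 3087 ± 594 CPM of it.

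**Figure D3:**
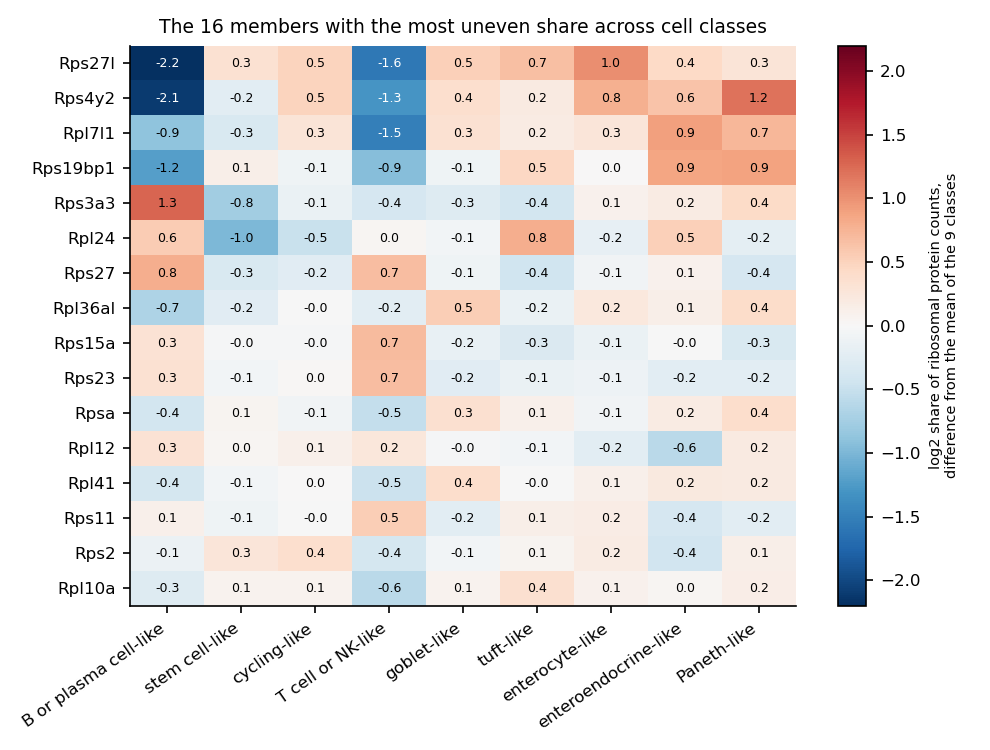
Heat map of the 16 members with the most uneven share of ribosomal protein counts (rows) in 9 cell classes (columns). Each cell gives the log2 share minus the mean of that member over the classes, so red is high and blue is low. Rps27l is low in the 2 immune classes (-2.2 and -1.6) and high in enterocyte-like cells (1.0), while Rps27 is high in the immune classes (0.8 and 0.7).

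The ratios of the other paralogs to their partners are values with no test. Rpl36al, an intronless copy of Rpl36a, stood at 692 ± 132 CPM in stem cell-like and 785 ± 114 in goblet-like cells, where Rpl36a went from 1618 ± 54.1 to 976 ± 93.3. The ratio was 0.438 in stem cell-like, 0.691 in enterocyte-like and 0.801 in goblet-like cells. In goblet-like cells Rpl36al had a log2 fold change of 0.23 (SE 0.10, adjusted p = 0.0940 in edgeR's quasi-likelihood test), which did not pass. Rpl22l1, the paralog of Rpl22, stood at 908 ± 136 CPM in stem cell-like and 524 ± 83.8 in enterocyte-like cells, and Rpl22 at 1699 ± 136 and 943 ± 75.9. Their ratio was 0.557 and 0.569 there and reached 0.653 in goblet-like cells. Rps19bp1, which encodes a protein that binds Rps19 and is not part of the ribosome, changed by -0.82 and -0.85, and its ratio to Rps19 was 0.0378 in stem cell-like, 0.0402 in enterocyte-like and 0.0386 in goblet-like cells. Rpl7l1, a relative of Rpl7, stood at 84.9 ± 28.7 CPM in stem cell-like and 124 ± 7.9 in cycling-like cells, a log2 fold change of 0.49 (SE 0.22) that did not pass.

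Between genotypes no member passed the test. With n = 2 biological replicates per genotype, the ribosomal protein share averaged 15.9% (SD 1.85) in the knockout and 15.5% (SD 1.55) in the flox mice, with collections at 17.3%, 17.2% and 14.6% in knockout and 16.03%, 18.3% and 14.4% in flox. Biological replicate 2 was the lower in both genotypes, and the genotypes overlapped. Knockout minus flox was 0.42 percentage points in all kept cells. Among the classes it was 0.49 points in stem cell-like and 0.97 in cycling-like cells, against 0.82 in enterocyte-like and 0.47 in goblet-like cells. An exact two-sided permutation test gave p = 0.667, 1, 0.667, 0.333 and 0.333, where 0.333 is the smallest that 2 against 2 allows, and no adjusted p over the 5 comparisons was below 0.833. Without the barcodes found in more than 1 collection the 5 differences were 0.52, 0.52, 1.09, 0.59 and 0.47. Within run 1 they were 0.12, 1.64, -0.78, -0.15 and 0.98, and within run 2 1.49, 0.64, 2.74, 1.17 and 0.31, so the direction in cycling-like and enterocyte-like cells was not the same in the 2 runs.

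In edgeR's quasi-likelihood test 0 of 84 members were called in all kept cells, where 0.00947% of all 10555 genes tested were called, and 0 members had an unadjusted p under 0.05. In the classes the count was also 0, of 83 members in stem cell-like cells and 84 in the others, where 0.0976% of all genes were called in stem cell-like cells, 0.0417% in cycling-like, 0.0156% in goblet-like and 0.0142% in enterocyte-like cells. Members with an unadjusted p under 0.05 numbered 3, 2, 1 and 6 in that order. The share of all genes under that unadjusted threshold is not given here, so no result about the members is read from these counts. DESeq2 also called 0 members in each set. Most estimates were slightly above 0: 72 of 84 in all kept cells with a median log2 fold change of 0.07, where the median over all genes was 0.00. In the classes the medians were 0.05, 0.10, 0.06 and 0.13 in the same order. The shares, to which these values add up, overlapped between biological replicates of the genotypes in all kept, stem cell-like and cycling-like cells. In enterocyte-like cells both knockout values (12.98% and 12.45%) lay above both flox values (12.43% and 11.35%). In goblet-like cells they were 14.32% and 13.49% against 13.44% and 13.44%. Single collections of the genotypes overlapped in both classes. The permutation p for both was the smallest that 2 against 2 allows, so the test cannot resolve these differences.

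By smallest unadjusted p, the 3 members named above 0 in each set came from Rps28, Rpl35, Rps27 and Rpl38, with Rps3a3 in cycling-like cells. The sets share cells. Rps28, a small-subunit protein, stood at 1933, 588 and 1061 CPM in flox and at 1267, 2664 and 1532 CPM in knockout collections. The genotypes overlapped, with flox collection 2 lowest and knockout collection 2 highest. Its log2 fold change was 0.43 (SE 0.22, unadjusted p = 0.0714, adjusted p = 0.9996 in edgeR's quasi-likelihood test) in all kept cells and 0.60 (SE 0.19, unadjusted p = 0.00463, adjusted p = 0.685) in stem cell-like cells. The value in all kept cells was 0.13 without knockout collection 2, and without flox collection 2 it was 0.27. Within run 1 it was 0.10 and within run 2 1.01. Rps28 passed in stem cell-like cells when knockout collection 3 was left out (log2 fold change 0.78, adjusted p = 0.0390 in edgeR), which leaves 1 knockout biological replicate, assumed to vary like the flox ones, and in cycling-like cells with the biological replicate number as a block (0.53, adjusted p = 0.00446 in edgeR). In cycling-like cells its value was -0.0017 within run 1 and 1.20 within run 2. Within run 2, which has a single flox collection, Rps28 and Rpl38 had log2 fold changes of 1.12 and 1.10 in stem cell-like cells. Within run 1, which has a single knockout collection, they had 0.29 and -0.31 there.

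Rpl38, a large-subunit protein known from skeletal patterning mutants, stood at 1721, 664 and 954 CPM in flox and 943, 2058 and 1520 CPM in knockout. Rps29 stood at 3156, 1115 and 1692 CPM in flox and 2132, 3509 and 2586 CPM in knockout, and Rps27 at 2172, 1351 and 1535 CPM and 1780, 2897 and 2005 CPM. In each of these 4 genes flox collection 2 was lowest and knockout collection 2 highest. Among the 73 members at 1000 CPM or more they had the widest spread between collections, 4.53-fold for Rps28, 3.15 for Rps29, 3.10 for Rpl38 and 2.14 for Rps27, where the median over these members was 1.49 and over the 86 other genes at this level 1.43. Their annotated main transcripts are short, at 345 to 457 bases. The 10 members with the shortest transcripts took 9.07% of ribosomal protein counts in flox collection 2 and 13.5% in knockout collection 2, with the other 4 collections from 10.9% to 13.3%. The collection moved with these values in both genotypes, and its part in the genotype estimates was not tested.

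Rpl35 was the only member whose collections did not overlap between genotypes, with 1593, 1691 and 1553 CPM in flox and 1757, 2320 and 1858 CPM in knockout. That is 1 of 86 members, where 7.01% of all genes tested in all kept cells had no overlap and 2.47% had every knockout collection above. Its log2 fold change was 0.33 (SE 0.18, unadjusted p = 0.0865, adjusted p = 0.9996 in edgeR's quasi-likelihood test) in all kept cells and 0.42 (SE 0.16, unadjusted p = 0.0179) in enterocyte-like cells.

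The members named for values below 0 did not pass either. Rps4y2 had -0.22 (SE 0.22) in all kept cells, -0.53 (SE 0.46) in stem cell-like, -0.15 (SE 0.26) in enterocyte-like and -0.95 (SE 0.42, unadjusted p = 0.0319) in goblet-like cells, at a level of 75.5 CPM. Rpl12 and Rps9 had -0.07 and -0.06 in all kept cells, Rpl4 had -0.22 (SE 0.17) in stem cell-like cells, and Rpl29 had -0.10 in goblet-like cells. Rps3a3, the pseudogene, had 0.71 (SE 0.32) in cycling-like and -0.48 (SE 0.53) in goblet-like cells. Rps19bp1 had -0.03 in cycling-like cells and Rpl5 -0.02 in enterocyte-like cells. Rpl24 had -0.08 in enterocyte-like cells, 0.00 in cycling-like cells and -0.38 (SE 0.68) in stem cell-like cells.

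**Figure D4:**
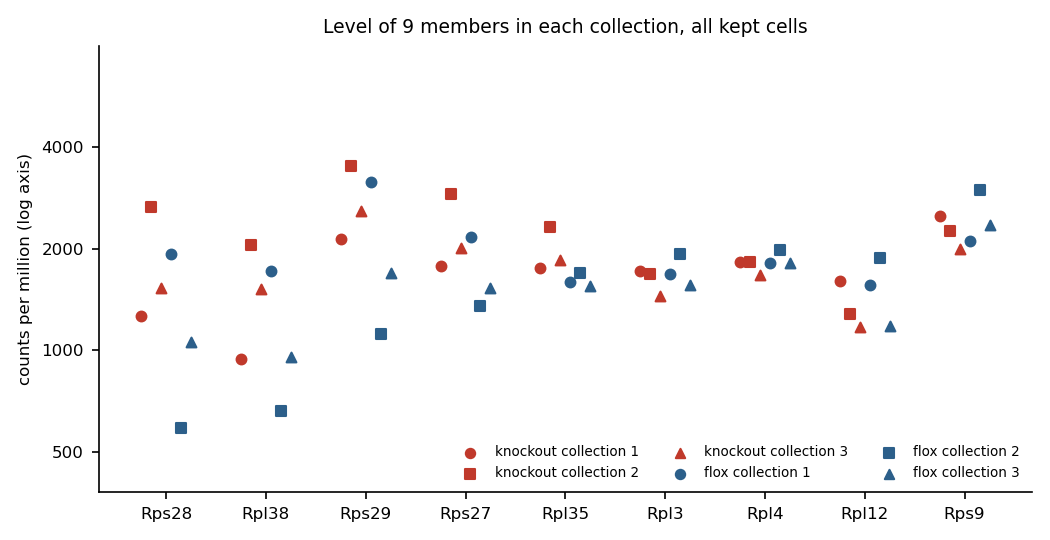
CPM on a log axis for 9 members in the 6 collections (red knockout, blue flox, marker shape by collection number), all kept cells. For Rps28, Rpl38, Rps29 and Rps27, flox collection 2 lies lowest and knockout collection 2 highest, whereas Rpl3 and Rpl4 differ little between collections.

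**Figure D5:**
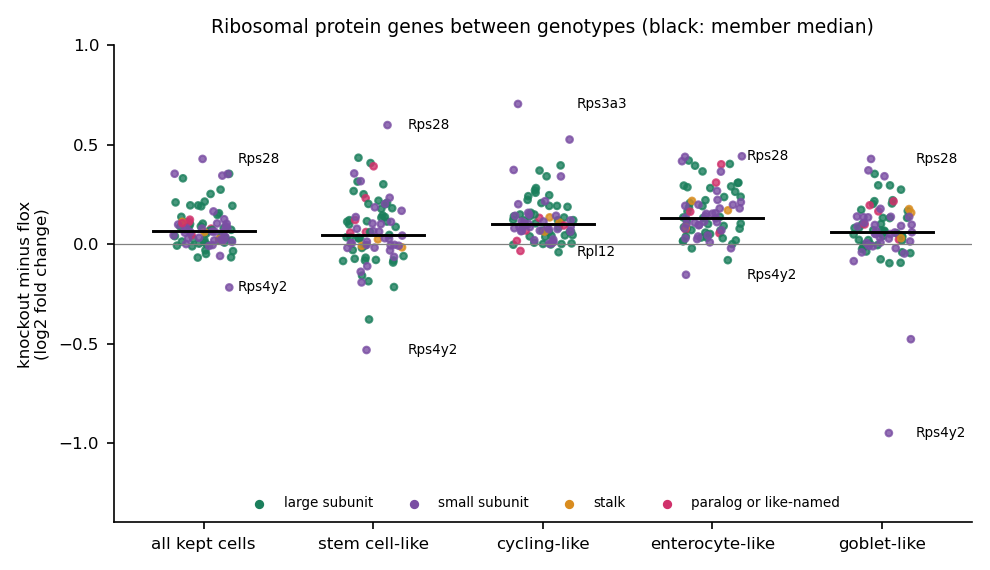
Knockout minus flox log2 fold change (vertical axis) of each ribosomal protein gene in all kept cells and 4 classes (horizontal axis), 1 point per gene coloured by role, with the median as a black bar. The medians lie between 0.05 and 0.13, no member passed the test, and the highest and lowest member of each set are named.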

How the data were processed

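Members and lists were chosen with earlier results of these data known. The authors deposited unnormalized whole-number counts for each gene in each barcode. The submitters' processing notes name STAR 2.6 and mm10. The sources used here do not give the UMI settings or how barcodes were chosen for the tables.

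Counts were scaled to 10000 per cell and logged. Without the member genes, -ps symbols and mitochondrial genes, 2000 variable genes gave 30 principal components, 15 neighbours and Leiden clusters at resolution 1 (scanpy 1.11.5, leidenalg 0.10.2). Of 15 clusters, 12 were named from marker lists, when at least 3 markers were enriched 1.5-fold and detected in 10% of cells, and 2 were among the top 10 genes or 50% of the list was enriched. No doublet caller was run.

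Sums per biological replicate were tested with edgeR 4.0.16 (quasi-likelihood, TMM, filterByExpr at a minimum count of 10, Benjamini-Hochberg threshold 0.05 over all genes). Genotype fits used 2 against 2 sums, all kept cells or 1 class with at least 20 cells per sum. The class fit used the 16 sums of 4 classes with the biological replicate as a block. DESeq2 1.42.0 was an alternative. Scripts were tested on simulated data, drawn with the same dispersion for every gene. There the genotype test recovered 51 of 100 genes changed by 1 on the log2 scale in all kept cells. In enterocyte-like cells it recovered 37 of 100. For changes of 2 on the log2 scale these numbers were 96 and 97 of 100, so smaller changes can be missed. Unevenness is the SD over 9 classes of the log2 share of member counts, with 0.5 added to counts. Named members are the 6 highest and lowest, all paralogs, the members past the threshold between genotypes (or the 3 of smallest unadjusted p per direction), up to 6 per direction farthest from the member median in each class contrast, and the 10 most uneven. Members at 20 CPM or more entered the last 2 groups. Some of the genes this rule and the lists name are not reported here.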

Additional observations from a re-analysis of the deposited data

Results flagged for a closer look

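The 23 ribosomal symbols left out of the members, mostly symbols holding -ps, took 0.245% of kept counts in knockout collection 2, above the highest flox collection (0.110%). The other knockout collections had 0.0953% and 0.0991%. Of the 12 such symbols at 20 CPM or more, 10 were highest in that collection, which also had the highest Rps28, Rps29, Rpl38 and Rps27 among the members.

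In Paneth-like and tuft-like cells the ribosomal protein share moved in opposite directions between genotypes in the 2 biological replicates, in every collection. In biological replicate 1, Paneth-like cells had 13.5% and 17.7% in knockout (11 and 7 cells) and 11.7% and 13.0% in flox (44 and 15 cells). In biological replicate 2 they had 5.02% in knockout (19 cells) and 10.7% in flox (37 cells), a difference of -5.67 points. Tuft-like cells had 15.1% and 14.7% in knockout and 8.85% and 3.03% in flox in biological replicate 1, from 2 to 10 cells, and 14.0% and 15.5% in biological replicate 2, a difference of -1.44 points. The difference between biological replicates was not tested, and few cells stand behind each value.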

How the results depend on the processing

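The share differences of enterocyte-like and goblet-like cells kept their direction in each alternative run, with 75 to 79 and 70 to 78 members changed. In goblet-like cells 1 of those changed was higher without a filter on low counts, with DESeq2 size factors, without shared barcodes and without flox biological replicate 2. In the main run 45.4% (enterocyte-like) and 27.8% (goblet-like) of all genes were called. Calls over all genes in these 2 classes are not given here for the alternatives, so their member counts are not set against a share. Without each collection in turn the share differences from stem cell-like cells ran from -9.33 to -8.52 (enterocyte-like), -7.85 to -7.33 (goblet-like) and -2.37 to -1.59 points (cycling-like). With single collections as samples they were -8.87, -7.76 and -1.67, each at an exact permutation p of 0.0312. The cycling-like class gave no value with members kept in the clustering or at resolution 0.5. Members changed in cycling-like cells numbered 26 with DESeq2, 19 with DESeq2 size factors, 2 (1 up, 1 down) without a filter on low counts and 0 without the replicate block, and 1 (without flox biological replicate 1) to 11 with each biological replicate left out. Of these alternatives, calls over all genes are given above only for DESeq2 size factors.

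Knockout minus flox shares changed sign when single collections or biological replicates were left out: from -0.88 to 1.73 in all kept cells, -0.60 to 2.54 in cycling-like, -0.72 to 1.41 in enterocyte-like and -1.10 to 2.08 in stem cell-like cells, against 0.016 to 0.886 in goblet-like cells. By the median over cells the enterocyte-like value was -0.26 and the stem cell-like one -0.27. Within run 1 the cycling-like value was -0.78 and the enterocyte-like one -0.15. Runs and shared barcodes were examined after seeing the data.

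Same-numbered collections of the 2 genotypes deviated from their group means with correlations of -0.248, 0.133 and 0.466, and differently numbered ones with -0.414 to 0.285. These few values do not settle whether the collection numbers pair the samples. The differences between biological replicates 1 and 2 correlated at 0.415 between genotypes, a single value that does not settle whether those numbers pair. With the biological replicate number as a block, members called between genotypes were 1 in cycling-like cells and 0 in the other sets, and with the collection number as a block 0 in each set. In stem cell-like cells, calls of members within run 2, and of Rps28 without knockout collection 3, came from fits with 1 sample in a genotype. Over all genes, calls in all kept cells numbered 1, against 3 with that block, 35 without a filter on low counts, 22 within run 1, 12 within run 2, and 1 to 34 over left-out replicates. With that block they numbered 59 against 3 in cycling-like and 48 against 1 in enterocyte-like cells.

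Some members changed sign between genotypes. Within run 1 these were Rps9 in all kept cells (0.041) and stem cell-like cells (0.11), Rps28 (-0.0017), Rpl35 (-0.095) and Rpl24 (0.54) in cycling-like cells, Rpl5 (0.039) in enterocyte-like cells, and Rpl38 in goblet-like (-0.15) and stem cell-like cells (-0.31). With the run as a term Rpl12 was 0.029 in all kept and 0.017 in cycling-like cells, and within run 2 0.079 and 0.11, with Rps19bp1 at 0.068 in cycling-like cells. Without shared barcodes Rps19bp1 was 0.031 (cycling-like), Rpl24 0.16 (enterocyte-like) and Rps3a3 0.31 (goblet-like). At 600 genes Rps19bp1 was 0.18 and Rpl24 0.10 in cycling-like cells and Rpl5 0.19 in enterocyte-like cells. Rpl24 was 0.0062 in cycling-like cells with the replicate block, and with members in the clustering Rpl5 was 0.021 (enterocyte-like) and Rpl4 0.019 (stem cell-like). Over left-out replicates Rpl12 ran from -0.27 to 0.18 in all kept and -0.23 to 0.19 in cycling-like cells, Rps4y2 from -0.57 to 0.053 and -0.44 to 0.057 (enterocyte-like), Rps9 from -0.29 to 0.087, Rpl24 from -0.44 to 0.37 (cycling-like) and -0.38 to 0.20 (enterocyte-like), Rpl5 from -0.26 to 0.087, Rps19bp1 from -0.17 to 0.083, Rps3a3 from -1.13 to 0.57 and Rpl29 from -0.47 to 0.058. The causes were not tested.

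Median unevenness was 0.171 with members in the clustering, 0.187 over clusters by number, and larger in single biological replicates, where fewer counts stand behind each share: 0.209 and 0.219 in flox, 0.226 and 0.280 in knockout. All 9 classes hold at least 50 cells, so that alternative is the main value. Depth limits the members under 120 CPM and the immune, Paneth-like and tuft-like classes, and 2 against 2 samples limit the genotype comparison.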
